A study of Mus musculus with 32 samples.

Results

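The 4 MHC class II genes described here were H2-Aa, H2-Ab1, H2-Eb1 and Cd74, taken as every probe set annotated to one of these symbols and to no other gene. Each had 1 probe set, so 4 of 12488 probe sets on the array, or 4 of the 8251 genes with a probe set of their own, were members. All 4 passed the filter on low values and were tested. MHC class II molecules are pairs of an alpha and a beta chain that display peptides from endocytosed protein to CD4 T cells. H2-Aa and H2-Ab1 encode the alpha and beta chains of the mouse I-A molecule, H2-Eb1 encodes the beta chain of I-E, and Cd74 encodes the invariant chain, which occupies the peptide groove of new class II molecules and directs them to endosomes. B cells, dendritic cells and macrophages carry these molecules, and in liver Kupffer cells, the resident macrophages, and dendritic cells are known carriers. Transcription of the family depends on the coactivator Ciita, which interferon-gamma can induce.

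Messenger RNA was measured in 32 livers of male C57BL/6 mice aged 3 months. Every mouse, controls included, was homozygous for a floxed RPS6 allele, the gene of ribosomal protein S6, and carried or lacked the Mx-Cre transgene. The Mx promoter responds to interferon, and deletion was induced with polyinosinic-polycytidylic acid (pI:pC), a synthetic double-stranded RNA that itself induces interferon; the labels do not state whether Cre minus mice received it, nor when it was given. Both genotypes were sampled 0, 20, 30 and 40 h after partial hepatectomy, in which a surgeon removes some lobes and the remnant regrows. Each group had 4 livers, apart from the Cre plus groups of 30 h, with 3, and 40 h, with 5. The labels name no sham operation and place 15 arrays in batch PHX2 and 17 in PHX3, with both batches in every group. They do not say that each liver was a separate mouse, so the p-values describe only the scatter among the samples. Rps6 checked the labels: its probe set, which also covers the pseudogene Rps6-ps4, lay between 10.99 and 11.82 in 16 Cre minus livers and between 6.24 and 7.69 in 16 Cre plus livers. The mean correlation of an array with its own group was under 0.95 for 3 arrays, Cre plus 30 h A, Cre minus 30 h C and Cre plus 40 h D. Values are deposited log2 levels, differences are on the log2 scale, and a call means a limma p under 0.05 after Benjamini-Hochberg adjustment over the 9249 probe sets tested.

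The H2-Ab1, H2-Aa and H2-Eb1 genes are consecutive protein-coding genes on mouse chromosome 17, between H2-Ob and H2-Eb2, and Cd74 lies on another chromosome. Class II promoters are known for an X box followed by a Y box, the sites of the RFX and NF-Y factors with which Ciita works. Promoters of 2 members were in the RefSeq table used here (GRCm38.p6, 250 bases before to 50 after the gene start), and they are shown because both hold this order of motifs within the letters searched. H2-Aa is at chr17:34287774-34288073 on the minus strand and H2-Eb1 at chr17:34305617-34305916 on the plus strand. The capitals mark GCAAC, a core of the X box, and CTGATTGG, the Y box, which holds CCAAT on its other strand.
H2-Aa: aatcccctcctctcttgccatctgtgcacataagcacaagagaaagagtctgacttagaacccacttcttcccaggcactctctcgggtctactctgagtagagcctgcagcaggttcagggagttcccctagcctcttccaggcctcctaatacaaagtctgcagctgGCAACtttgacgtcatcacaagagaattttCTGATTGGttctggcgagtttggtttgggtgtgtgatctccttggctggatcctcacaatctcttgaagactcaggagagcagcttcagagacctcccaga
H2-Eb1: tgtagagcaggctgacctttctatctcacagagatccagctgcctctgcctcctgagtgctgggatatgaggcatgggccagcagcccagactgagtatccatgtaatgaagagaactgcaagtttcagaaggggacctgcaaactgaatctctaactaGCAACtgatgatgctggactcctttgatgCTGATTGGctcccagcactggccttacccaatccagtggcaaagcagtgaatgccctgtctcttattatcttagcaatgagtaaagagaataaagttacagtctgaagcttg
In H2-Aa the 2 motifs began 81 and 51 bases before the gene start with 25 bases between them, and in H2-Eb1 they began 91 and 62 bases before it with 24 between. Searched on both strands over 32851 promoters of this length, CTGATTGG was in 4.1%, GCAAC in 35.2%, and GCAAC followed by CTGATTGG on the same strand, 15 to 40 bases apart, in 0.122%. That order was also in the promoters of H2-Oa and H2-Eb2, so 4 of the 8 class II genes with a promoter in the table held it. A match of letters describes the sequence and is no measure of binding.

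None of the 4 genes passed the test in any of the 14 comparisons made, although each fitted genotype difference of each gene at each of the 4 times was below 0, that is, lower in Cre plus livers. That direction was not stable: all 4 differences at 0 h turned positive without Cre minus liver A, and 8 of the 16 turned positive with PHX2 arrays alone and 0 with PHX3 alone. Averaged over the 4 times, the Cre plus minus Cre minus difference was −0.51 for Cd74 (SE 0.21, 95% confidence interval −0.93 to −0.08), −0.30 for H2-Aa (SE 0.13), −0.15 for H2-Ab1 (SE 0.06) and −0.10 for H2-Eb1 (SE 0.07). The limma adjusted p-values were 0.158, 0.181, 0.173 and 0.47, with unadjusted p-values of 0.0209, 0.0258, 0.0242 and 0.144. In this averaged comparison 6.31% of all tested probe sets were called and the median difference over them was 0, against −0.22 over the 4 genes, which share a fit and livers. With array weights, which give less influence to arrays that fit their group poorly, 3 of the 4 were called lower, H2-Aa by −0.34 (adjusted p = 0.0434), H2-Ab1 by −0.18 (adjusted p = 0.0173) and Cd74 by −0.58 (adjusted p = 0.0211), in a fit that called 19.2% of all probe sets. With PHX3 arrays alone, Cd74 was called lower at −0.94 (adjusted p = 0.0338), where 7.2% of probe sets were called. The within-batch averages were −0.14 in PHX2 and −0.94 in PHX3 for Cd74, −0.08 and −0.52 for H2-Aa, −0.06 and −0.25 for H2-Ab1, and −0.06 and −0.17 for H2-Eb1, so all 4 were negative in both batches and larger in size in PHX3. In bulk liver, fewer cells of a type and less RNA per cell cannot be told apart.

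**Figure D1:**
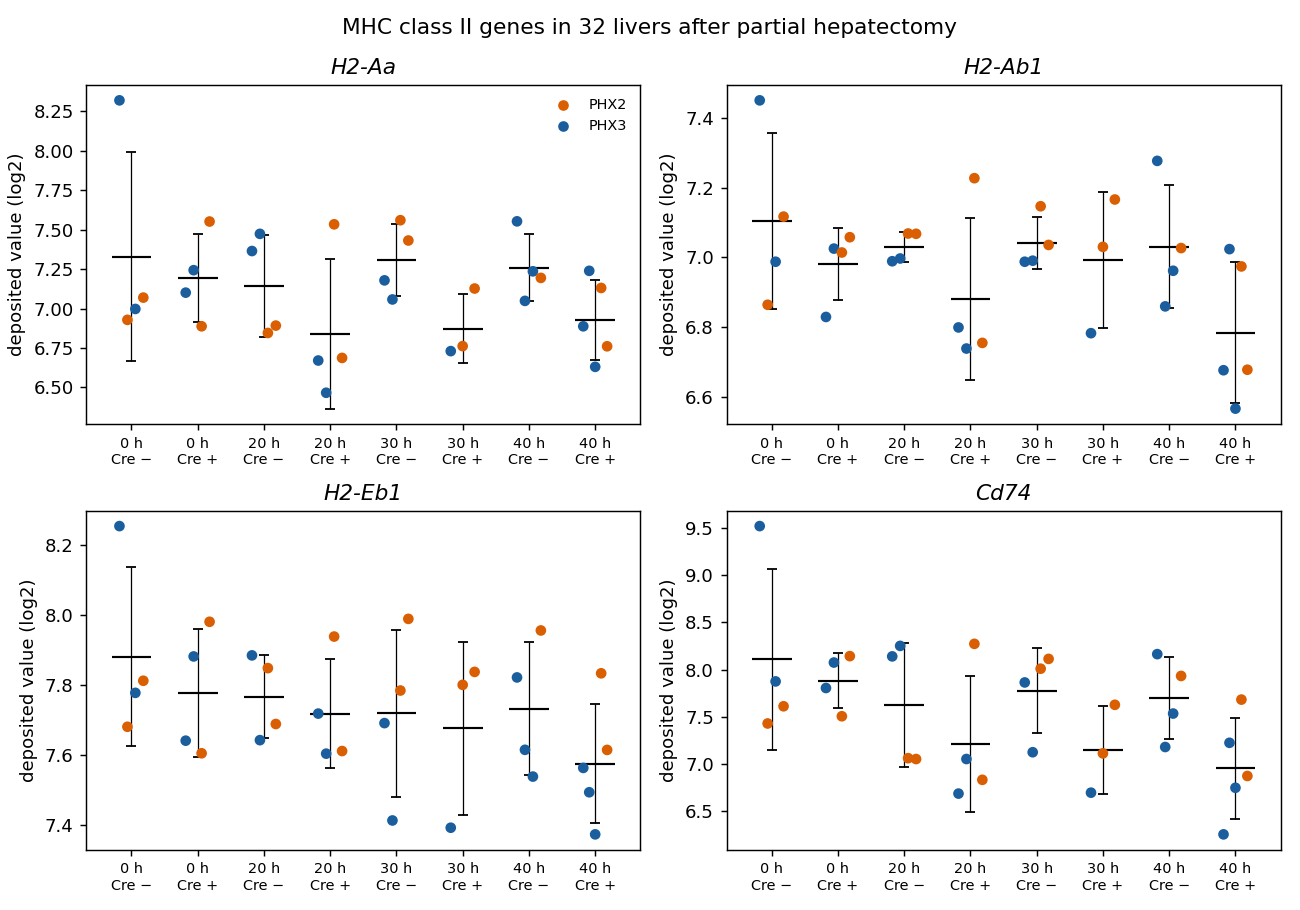
Deposited log2 values of H2-Aa, H2-Ab1, H2-Eb1 and Cd74 (y axes, each with its own range) in the 8 groups of time and genotype (x axes); points are livers coloured by batch, horizontal bars are group means and error bars are SD. The Cre minus 0 h liver at 9.52 for Cd74 and 8.32 for H2-Aa lies above the other 3 livers of its group, and the genotypes overlap at each time.

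Cd74, the invariant chain, varied most. At 0 h its level was 9.52, 7.43, 7.87 and 7.61 in Cre minus livers A to D and 7.80, 8.07, 7.51 and 8.14 in Cre plus livers A to D. At 20 h it was 8.14, 8.25, 7.06 and 7.05 in Cre minus livers and 6.69, 7.05, 8.27 and 6.83 in Cre plus livers. Liver A stood above the rest of the Cre minus group at 0 h, and at 20 h liver C was alone high among Cre plus livers while the Cre minus livers fell into a high and a low pair, so the genotypes overlapped at both times. At 30 h Cd74 was 7.86, 7.12, 8.01 and 8.11 in Cre minus livers and 6.70, 7.11 and 7.63 in Cre plus livers. At 40 h it was 8.16, 7.18, 7.53 and 7.93 in Cre minus livers and 6.26, 7.22, 6.75, 7.68 and 6.87 in Cre plus livers. The later groups also overlapped, with the lowest liver of all 32 among the Cre plus livers at 40 h. The genotype differences of Cd74 were −0.23 (SE 0.41), −0.42 (SE 0.41), −0.64 (SE 0.44) and −0.75 (SE 0.39) at 0, 20, 30 and 40 h, with limma adjusted p-values of 1, 0.999, 0.622 and 0.332. Leaving out 1 liver gave −0.47 to 0.27 at 0 h, −0.78 to −0.19 at 20 h, −0.87 to −0.39 at 30 h (the latter without Cre plus 30 h A) and −0.93 to −0.56 at 40 h.

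H2-Aa, the I-A alpha chain, had levels of 8.32, 6.93, 6.997 and 7.07 in Cre minus livers and 7.10, 7.24, 6.89 and 7.55 in Cre plus livers at 0 h. At 20 h the levels were 7.36, 7.47, 6.85 and 6.89 in Cre minus and 6.67, 6.47, 7.53 and 6.69 in Cre plus livers. The same livers as for Cd74 were high, Cre minus A at 0 h and Cre plus C at 20 h, and the genotypes overlapped. At 30 h H2-Aa was 7.18, 7.06, 7.56 and 7.43 against 6.73, 6.76 and 7.13 in Cre plus livers, and at 40 h 7.55, 7.05, 7.24 and 7.19 against 6.89, 7.24, 6.63, 7.13 and 6.76. Most Cre plus livers lay below the Cre minus livers at these times, with 1 overlapping Cre plus liver at 30 h and 2 at 40 h. Its genotype differences ran from −0.13 at 0 h to −0.43 at 30 h, with limma adjusted p-values between 0.55 and 1.

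H2-Ab1, the I-A beta chain, moved within a narrower range, 6.57 to 7.45 over the 32 livers. At 40 h it was 7.28, 6.86, 6.96 and 7.03 in Cre minus livers and 6.68, 7.02, 6.57, 6.97 and 6.68 in Cre plus livers. Of the Cre plus livers A, C and E were below every Cre minus liver and B and D were within their range. This was the genotype difference of a single time with the smallest unadjusted p among the 4 genes, −0.26 (SE 0.12, unadjusted p = 0.0352, limma adjusted p = 0.243), and it was −0.20 in PHX2 and −0.28 in PHX3. Array weights made it a call, −0.43 with an adjusted p of 0.0216, in a fit that called 9.31% of probe sets at 40 h. H2-Eb1, the I-E beta chain, ranged from 7.37 to 8.25 and its genotype differences from −0.18 at 40 h to −0.05 at 20 h. I-E needs an alpha chain from H2-Ea, which is a transcribed pseudogene in the RefSeq annotation of this strain. H2-Ea lay between 4.08 and 5.35 and was above the 30th percentile of its array on 4 of 32 arrays.

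Read against the whole array, the count of 0 of 4 members called stood beside shares of all probe sets of 0.0649% (0 h), 0.292% (20 h), 0.281% (30 h) and 5.35% (40 h). These shares depended on single livers and on the fit: without 1 liver 3 to 4, 17 to 33, 4 to 264 and 287 to 539 probe sets were called at those times, against 6, 27, 26 and 495 with all, and array weights called 26.3% at 30 h, again with 0 of 4 members. The 95% confidence interval of the Cd74 difference reached a 2.09-fold lower level at 0 h and a 2.92-fold lower level at 40 h, and it included 0 at each single time. The tests of whether the genotype difference at 20, 30 or 40 h was unlike that at 0 h called 0 of 4 members each time, with 0%, 0.0108% and 0.584% of probe sets called and a lowest unadjusted p of 0.362 among the members. Without Cre minus 0 h A the Cd74 value at 40 h moved from −0.52 to −1.04 (unadjusted p = 0.0466, limma adjusted p = 0.941) and at 30 h from −0.41 to −0.93, and that of H2-Aa at 30 h moved from −0.30 to −0.65 (unadjusted p = 0.0386, adjusted p = 0.999).

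**Figure D2:**
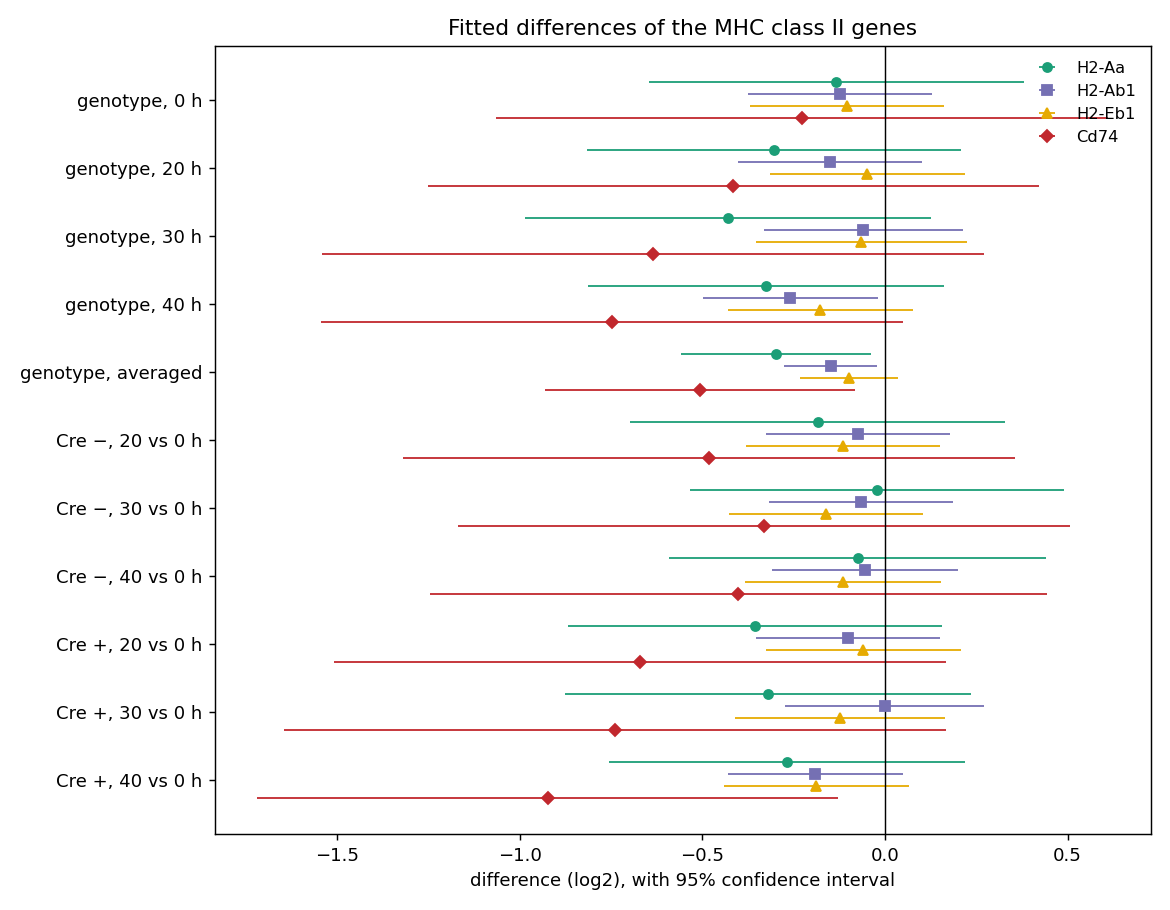
Fitted log2 differences (x axis) of the 4 genes with 95% confidence intervals for Cre plus minus Cre minus at each time and averaged, and for 20, 30 and 40 h against 0 h within each genotype (y axis). Every difference is below 0 (that of H2-Ab1 at 30 h in Cre plus livers, −0.0011, turned to 0.02 and 0.04 under other array scalings, and without Cre minus 0 h A all 4 genotype differences at 0 h and 11 of the 12 Cre minus time differences were above 0), and most intervals cross 0; the widest belong to Cd74, such as −0.92 at 40 h against 0 h in Cre plus livers.

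Time after hepatectomy was compared within each genotype, with the 0 h group shared by the 3 comparisons of that genotype. In Cre minus livers the Cd74 differences from 0 h were −0.48, −0.33 and −0.40 at 20, 30 and 40 h (SE 0.41 each), and those of the other 3 genes were between −0.18 and −0.02. None was called, with limma adjusted p-values of 0.531 to 0.985 and 7.37%, 3.14% and 4.77% of probe sets called. Without liver A at 0 h, 11 of these 12 differences turned positive, the exception being H2-Eb1 at 30 h (−0.0084). The Cd74 differences were then 0.01, 0.16 and 0.13 and the H2-Aa differences were 0.16, 0.32 and 0.29. In Cre plus livers Cd74 differed from 0 h by −0.67 at 20 h, −0.74 at 30 h and −0.92 at 40 h, the last with an SE of 0.39, an unadjusted p of 0.0246 and a limma adjusted p of 0.14. H2-Aa differed by −0.36, −0.32 and −0.27, H2-Eb1 by −0.06, −0.12 and −0.19, and H2-Ab1 by −0.10, −0.0011 and −0.19 at those times (the 30 h value was 0.02 with arrays centred on their medians and 0.04 with quantile normalization). Here 9.07%, 9.89% and 9.66% of probe sets were called and 0 of 4 members each time. With array weights Cd74 was called lower at 20 h, by −0.97 (adjusted p = 0.0371, with 28.8% of probe sets called), and at 40 h, by −1.27 (adjusted p = 0.0163, with 14.9% called).

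Ordered by group mean, Cre minus at 0 h was highest for each of the 4 genes, at 8.11 ± 0.96 for Cd74, 7.33 ± 0.66 for H2-Aa, 7.10 ± 0.25 for H2-Ab1 and 7.88 ± 0.25 for H2-Eb1 (SD, n = 4). The lowest group was Cre plus at 40 h for Cd74 (6.96 ± 0.53), H2-Ab1 (6.78 ± 0.20) and H2-Eb1 (7.58 ± 0.17; SD, n = 5) and Cre plus at 20 h for H2-Aa (6.84 ± 0.47; SD, n = 4). Between these ends Cd74 ran from Cre plus 0 h through Cre minus 30, 40 and 20 h to Cre plus 20 and 30 h. Each neighbouring pair of groups in each order overlapped. The order for Cd74 had its widest step, 0.41, between Cre minus 20 h and Cre plus 20 h.

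Liver A of the Cre minus 0 h group decided the sign of the genotype comparison at 0 h. Its Cd74 level was 3.68-fold the mean of the other 3 livers, H2-Aa 2.5-fold, H2-Eb1 1.41-fold and H2-Ab1 1.38-fold. Without this liver the 0 h differences were 0.27 for Cd74, 0.21 for H2-Aa, 0.05 for H2-Eb1 and 0.01 for H2-Ab1, all with limma adjusted p = 1. In the same liver the mean of 12 B cell markers differed from that of the other 3 livers by −0.01 and that of 7 dendritic cell markers by 0.01. The mean of 15 Kupffer cell and macrophage markers differed by −0.12, that of the monocyte markers by −0.20 and that of the type I interferon list by −0.38. Liver C of the Cre plus 20 h group was also high in all 4 genes, 2.67-fold for Cd74 and 1.9-fold for H2-Aa. There the marker means were above the other 3 livers too, by 0.37 for Kupffer cells and macrophages, 0.28 for T and NK cells, 0.27 for monocytes, 0.21 for B cells and 0.19 for dendritic cells. The rise was not limited to these lists: the type I interferon list was higher by 0.40, co-stimulation by 0.33, cholangiocytes by 0.21, and neutrophils and endothelial cells by 0.12 each. Their part in the class II levels was not tested. Without liver C the 20 h genotype difference of Cd74 was −0.78 (SE 0.41) and that of H2-Aa −0.55 (SE 0.24), with limma adjusted p = 1 for both. Other livers moved these values the other way, to −0.19 for Cd74 without Cre minus 20 h B and to −0.17 for H2-Aa without Cre plus 20 h B.

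That liver was in PHX2, and at 20 h the batches gave opposite signs for Cd74, H2-Aa and H2-Eb1. Cd74 differed between genotypes by 0.50 in PHX2 and −1.33 in PHX3, H2-Aa by 0.24 and −0.85, and H2-Eb1 by 0.0065 and −0.10, while H2-Ab1 was below 0 in both, at −0.08 and −0.22. At 0 h, where the PHX3 arrays include Cre minus liver A, all 4 genes had opposite signs, with Cd74 at 0.30 in PHX2 and −0.76 in PHX3 and H2-Aa at 0.22 and −0.49. A test of the genotype difference in PHX3 minus that in PHX2 was added after the data were seen. At 20 h it gave −1.82 for Cd74 (SE 0.68, unadjusted p = 0.0154, limma adjusted p = 0.27) and −1.09 for H2-Aa (adjusted p = 0.341). It called 0 of 4 members at 20 h, with 0.27% of probe sets called. At 0, 30 and 40 h it also called 0 of 4, with 0% of probe sets called at each. At 40 h the batches had one sign, −0.65 and −0.88 for Cd74. The batch term itself called 27% of probe sets and 0 of 4 members (adjusted p 0.135 to 0.957).

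Within groups the 4 genes went up and down together. Over the 32 livers, after group and batch means were removed, Pearson's r was 0.90 between H2-Aa and Cd74, 0.82 between H2-Aa and H2-Ab1, 0.78 between H2-Eb1 and Cd74, 0.76 between H2-Ab1 and Cd74, 0.74 between H2-Aa and H2-Eb1 and 0.66 between H2-Ab1 and H2-Eb1. Without Cre minus 0 h A these were 0.86, 0.77, 0.70, 0.69, 0.64 and 0.56 in the same order. All 4 genes were above their group mean in 8 livers and below it in 11, and 13 livers were mixed. The genes shared arrays and RNA extracts, so these values describe the livers. Cd74 had a residual SD of 0.612, above 97.8% of tested probe sets, and H2-Aa one of 0.371, above 89.8%. H2-Eb1 (0.186) and H2-Ab1 (0.175) were near the middle, at 54.6% and 49.8%.

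**Figure D3:**
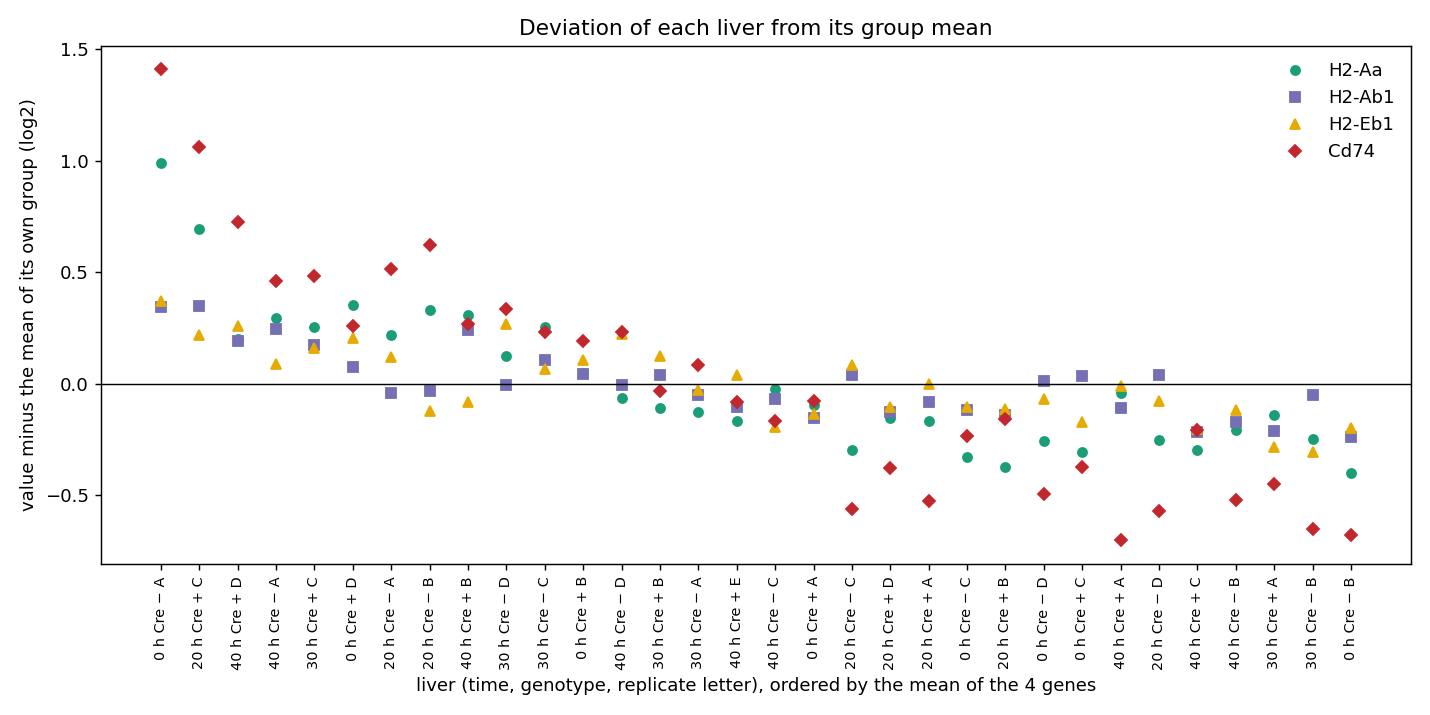
Deviation of each of the 32 livers from its own group mean (y axis, log2) for the 4 genes, with livers ordered along the x axis by the mean of the 4. All 4 genes are above their group mean in 8 livers, led by Cre minus 0 h A and Cre plus 20 h C, and all 4 are below it in 11.

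Over the 32 arrays the genes whose levels were most like the mean of the 4 members were Ctss (r = 0.71), Csf1r (0.70), Fkbp2 (0.69), Rnf167 and Adgre1 (both 0.68), Folr2 and Serpina1e (both 0.67), Srxn1 (0.65), Slc35d1 (0.64) and C1qa (0.64). Ctss is cathepsin S, the protease that cuts the invariant chain, Csf1r is a growth factor receptor of macrophages, and Adgre1 encodes a surface marker of mouse macrophages. Without Cre minus 0 h A the r of these 10 genes lay between 0.57 (Rnf167) and 0.69 (Fkbp2). After group and batch means were removed the 10 genes were Epb41l4b (0.73), Serf1, Znrf2, Folr1, Tub, Tle3, Foxq1, Map3k8, Pi4k2a and Ulk2 (0.65), none of them among the first 10. The 1% of tested probe sets with the highest r lay above 0.545 in the first order and above 0.552 in the second. The arrays shared groups and batches in the first.

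Genes that act beside the members were followed in lists, whose counts in the averaged genotype comparison are to be read against the 6.31% of all tested probe sets called there. The peptide exchange chains H2-DMa, H2-DMb1 and H2-DMb2, the modulators H2-Oa and H2-Ob, and H2-Ea made up the 6 tested of 7 loading and other class II genes, and 0 of 6 were called in the averaged genotype comparison, with a median of −0.02. H2-DMb1 differed by −0.08 and H2-DMa by −0.04, or −0.11 on its second probe set. Among the 6 tested of 9 class II transcription factors 0 were called, with Ciita at 0.04 and Nfyb, a subunit of NF-Y, at −0.16 (limma adjusted p = 0.166). Within Cre plus livers Ciita was above its 0 h level at 30 and 40 h, by 0.30 (SE 0.09, limma adjusted p = 0.025) and 0.24 (SE 0.07, adjusted p = 0.0398). Cd74 lay below its 0 h level at both times but was not called (limma adjusted p = 0.314 and 0.14). The Ciita level was 5.80 to 6.27 over all 32 livers, near the array medians of 5.88 to 5.99. The 30 h call of Ciita was lost without Cre plus 0 h C or D or Cre plus 30 h A or C. Its 40 h call was lost without any of Cre plus 0 h A to D or Cre plus 40 h B, C or D. Both Ciita calls were lost in each batch alone, which holds fewer arrays. The 40 h call was also lost with the replicate block and when the 3 arrays least like their own group were dropped. With array weights it was lost too, while Cd74 was called lower there. Left-out livers included, the 30 h call held in 11 of 17 settings and the 40 h call in 7 of 19.

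Of the 10 tested of 13 genes of endosomal processing, 2 were lower in Cre plus livers on average: Ctss by −0.50 (SE 0.09, limma adjusted p = 0.000683) and Ifi30, the thiol reductase GILT, by −0.58 (SE 0.09, adjusted p = 7.92e-05). Neither call was lost when any 1 liver was left out, and both were lost in PHX2 alone. At 40 h, where 5.35% of all tested probe sets were called, Ifi30 was lower by −0.81 (adjusted p = 0.00311) and Ctsd, cathepsin D, higher by 0.35 (adjusted p = 0.0167). Both calls were lost in PHX2 alone and with the arrays of 40 h alone, and that of Ctsd also in PHX3 alone, with no batch term and without Cre minus 40 h B. In Cre plus livers at 40 h against 0 h, 2 of these 10 genes rose and 4 fell, where 9.66% of all tested probe sets were called. The lysosomal protease Ctsl rose by 1.01 and the tetraspanin Cd63 by 1.12, and Ctss, Ctsb, Ctsh and Ifi30 fell by 0.60, 0.52, 0.30 and 0.55 on the log2 scale. The Ctsb call held without any 1 liver. The Ctsl call was lost without 0 h D and the Ctss call without 0 h A or B or 40 h B or C. The Ctsh call was lost without 0 h B, C or D or 40 h A, B, D or E. The Ifi30 and Cd63 calls were lost without any of 0 h A to D or 40 h B, D or E. Over 19 settings, left-out livers included, the Ctsb call held in 18, that of Ctsl in 14 and that of Ctss in 13. The Cd63 call held in 9, that of Ifi30 in 7 and that of Ctsh in 4. Cre minus livers at 20 h had Ctsl and Cd63 higher and Ctsh lower than at 0 h, by 0.91, 1.37 and −0.37. There 7.37% of all tested probe sets were called. Each of these 3 calls was lost in each batch alone and without 0 h D, 20 h C or 20 h D. Those of Ctsl and Ctsh were also lost without 0 h B, and those of Ctsh and Cd63 without 0 h C. That of Ctsl was lost without 0 h A and that of Ctsh without 20 h B. Cre minus livers also had Ctsb lower at 30 h (−0.48, limma adjusted p = 0.0388) and Ctsd lower at 40 h (−0.39, adjusted p = 0.0112). Both of these calls were lost in PHX2 alone and with no batch term. The Ctsb call was also lost without any of 0 h A to D or 30 h A, B or D, and held in 9 of 18 settings. The Ctsd call was also lost in PHX3 alone. Cre plus livers at 30 h had Ctsl higher by 0.92 (adjusted p = 0.0422) and Ctsb lower by −0.47 (adjusted p = 0.0322). Neither of these calls at 30 h was run under the other settings.

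MHC class I genes, which display peptides to CD8 T cells, had 14 tested of 20, with 2 higher and 1 lower in the averaged genotype comparison. H2-K1 was higher by 0.26 (limma adjusted p = 0.0141) and H2-D1 by 0.27 (adjusted p = 0.0249), on probe sets of a family type that near-identical class I genes can share. Both calls were lost in each batch alone, and that of H2-D1 also with quantile normalization and without Cre plus 30 h C. Pdia3, a chaperone of class I loading, was lower by −0.53 (adjusted p = 0.00577). The interferon-gamma list, with 13 tested genes, had Ifi47 lower by −0.57. The type I interferon list, also with 13, had Mx2 higher by 0.68 and Ifnar1 lower by −0.16. These calls and that of Pdia3 were lost in PHX2 alone, and that of Ifnar1 also in PHX3 alone. None of the 5 tested co-stimulation and co-receptor genes was called.

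Markers of class II bearing cells differed between lists. Of 15 tested Kupffer cell and macrophage markers 10 were lower in Cre plus livers in the averaged comparison, Clec4f, Cd5l, C1qa, C1qb, C1qc, Adgre1, Csf1r, Cd68, Msr1 and Tyrobp, with a list median of −0.43, such as Clec4f by −1.22 and Csf1r by −0.51. Mean levels of the 15 in Cre minus livers were 7.45 to 7.69 at 0 h and 6.99 to 7.54 at 40 h. In Cre plus livers they were 6.98 to 7.40 and 6.38 to 6.95, without overlap at those times. None of the 15 was called at 0 h, where their lowest limma adjusted p was 0.456 (C1qb). The endothelial list did not overlap at 0 h either, at 6.48 to 6.54 in Cre minus and 6.55 to 6.63 in Cre plus livers. How many of all probe sets lacked overlap was not counted. Of the 12 tested of 18 B cell markers 1 was lower, Btk by −0.20 (limma adjusted p = 0.0364, lost without any of 15 livers), a share near that over all probe sets. Of the 7 tested of 16 dendritic cell markers 0 were called. Their list medians were −0.02 and −0.03. Over all 32 livers the mean level was 6.02 to 6.33 for the B cell list and 6.74 to 7.02 for the dendritic cell list, where array medians were 5.88 to 5.99. How close these markers lie to background was not measured, so a list without change may not show the cells. The part of any of these cells in the levels of the 4 class II genes was not tested.

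**Figure D4:**
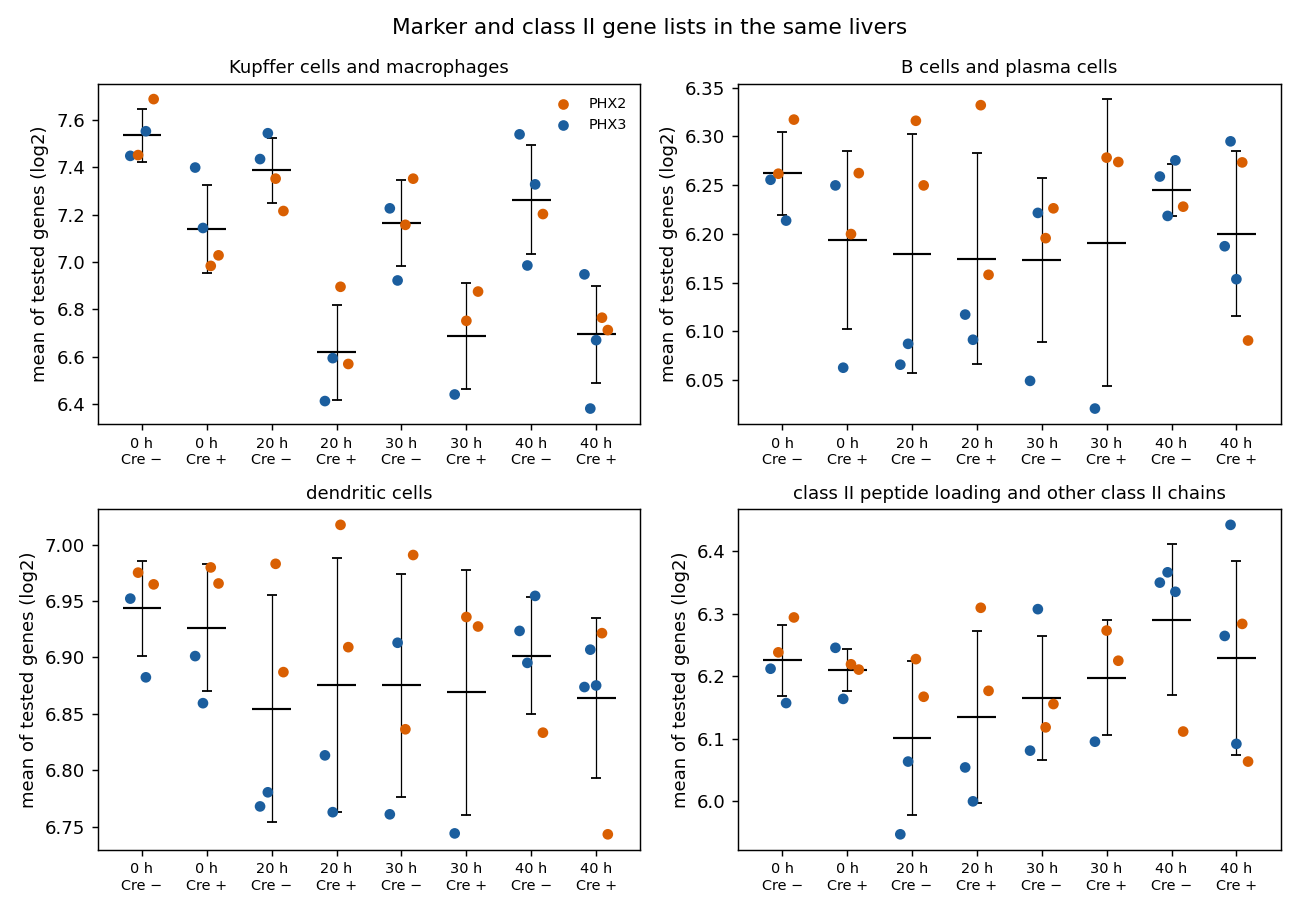
Mean log2 level (y axes) of the tested genes of the Kupffer cell and macrophage, B cell, dendritic cell, and class II peptide loading lists in the 8 groups (x axes); points are livers coloured by batch, bars are group means and error bars are SD. The Kupffer cell and macrophage mean is lower in Cre plus livers at 0 h (6.98 to 7.40) than in Cre minus livers (7.45 to 7.69), though no gene of that list was called at 0 h. The B cell mean stays between 6.02 and 6.33.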

How the data were processed

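Liver mRNA was measured on 32 Affymetrix arrays. The deposited values are log2 levels from RMA as run by the authors, according to the submitters' processing notes. Neither the RMA version nor joint normalization of the batches was given in the sources used here. Base 2 was read from the range of the values, 2.30 to 14.12. Names came from the platform annotation, whose symbols, checked by Entrez ID, needed no update: 10833 had 1 gene, 396 several and 1193 none here, beside 66 controls. Testing required a value over the array's 30th percentile on 3 or more arrays. The fit used limma 3.58.1 under R 4.3.3 (8 groups plus batch, 2-sided), with Benjamini-Hochberg adjustment within each comparison, and the fit was tested on simulated data. The number of arrays limits the precision. Lists used the probe set of a gene with the highest mean. Called list genes were named for the comparisons described, so a list gene not named at another time may still have been called there. Class II genes were named throughout, and so were the 10 genes most like the members by r. The members and lists were chosen with earlier results of these data known. Alternatives were no batch term, other array scalings, no filter, array weights, another variance prior, a replicate block, each batch or time alone, and leaving out livers.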

Additional observations from a re-analysis of the deposited data

Results flagged for a closer look

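Of 28 sets of values (a gene in a group of 4 or 5 livers), 2 held a liver far from the others, where chance gives about 1 in 20. H2-Aa in Cre minus liver A at 0 h was 8.32, with the nearest liver of its group at 7.07. H2-Ab1 in Cre plus liver C at 20 h was 7.23, with the nearest at 6.80.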

How the results depend on the processing

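No member was called when any 1 liver was left out (lowest adjusted p 0.0705). Of 456 member differences under the other settings 417 kept direction and side of the threshold, 7 became calls and 32 turned sign. The counts of members called that moved from 0 were 3, 1, 1 and 1 with array weights (averaged, 40 h, Cre plus 20 h and 40 h) and 1 with PHX3 alone (averaged); the cause was not tested. In the following, times within a genotype are against 0 h. With PHX2 alone the sign turned for the genotype difference at 0 h (H2-Aa 0.22, H2-Ab1 0.0454, H2-Eb1 0.0464, Cd74 0.30), the genotype difference at 20 h (H2-Aa 0.24, H2-Eb1 0.0065, Cd74 0.50) and the genotype difference at 30 h (H2-Ab1 0.0069). It also turned there for Cre minus, 20 h (H2-Ab1 0.0776, H2-Eb1 0.022), Cre minus, 30 h (H2-Aa 0.50, H2-Ab1 0.10, H2-Eb1 0.14, Cd74 0.54), Cre minus, 40 h (H2-Aa 0.20, H2-Ab1 0.0362, H2-Eb1 0.21, Cd74 0.41) and Cre plus, 30 h (H2-Ab1 0.0622, H2-Eb1 0.0261). With array weights it turned for the genotype difference at 0 h (H2-Aa 0.0116), Cre minus, 30 h (H2-Aa 0.0854), Cre minus, 40 h (H2-Aa 0.13, H2-Ab1 0.0623) and Cre plus, 30 h (H2-Ab1 0.0318). With the 3 arrays correlating under 0.95 with their group left out it turned for the genotype difference at 30 h (H2-Ab1 0.0778, H2-Eb1 0.0673) and Cre plus, 30 h (H2-Ab1 0.10, H2-Eb1 0.0015). H2-Ab1 in Cre plus livers at 30 h was 0.0114 without the batch term, 0.0203 with median centring and 0.0447 with quantile normalization. Leaving out 1 liver turned signs, with ranges of the genotype difference at 0 h, H2-Aa −0.27 to 0.21, H2-Ab1 −0.22 to 0.0104, H2-Eb1 −0.20 to 0.0493, Cd74 −0.47 to 0.27, the genotype difference at 20 h, H2-Eb1 −0.10 to 0.0167, the genotype difference at 30 h, H2-Ab1 −0.13 to 0.0321, H2-Eb1 −0.14 to 0.0467, Cre minus, 20 h, H2-Aa −0.32 to 0.16, H2-Ab1 −0.17 to 0.0593, H2-Eb1 −0.21 to 0.0382, Cd74 −0.72 to 0.0125, Cre minus, 30 h, H2-Aa −0.16 to 0.32, H2-Ab1 −0.16 to 0.069, Cd74 −0.57 to 0.16, Cre minus, 40 h, H2-Aa −0.20 to 0.29, H2-Ab1 −0.15 to 0.0875, H2-Eb1 −0.20 to 0.0485, Cd74 −0.63 to 0.13, Cre plus, 20 h, H2-Eb1 −0.14 to 0.0014, Cre plus, 30 h, H2-Ab1 −0.0753 to 0.0907. Deviations of livers with the same replicate letter correlated with a median r of −0.0442, against 0.00228 for different letters, and 6 of 32 arrays matched their own letter best. These values cannot show whether the letters paired the livers. With the letter as a replicate block, 0 of 4 members were called in each comparison. The called results on list genes that were also run under these settings numbered 27. Of these, 26 fell short of the threshold in PHX2 alone and 15 in PHX3 alone, which hold fewer arrays, and none turned sign. Of the Kupffer cell and macrophage markers only Clec4f, Csf1r and Adgre1 were among them, and the other called markers of that list were not checked. No signal over background per probe was used here, so how close the members lie to background was not measured.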
